A study of Mus musculus with 6 samples.

Results

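A set of 10 genes of muscle glycolysis and glycogen metabolism was followed through 6 lists of chromatin peaks from mouse gastrocnemius, a calf muscle of mostly fast fibres. The 10 are Pfkm, Pygm, Eno3, Pgam2, Aldoa, Gapdh, Pkm, Ldha, Gys1 and Tpi1, of 21887 RefSeq protein-coding genes on chromosomes 1 to 19, X and Y, and were chosen by name for their enzymes. For each, every peak in the gene and 10 kb either side was taken. Histone marks had been mapped by CUT&RUN, in which a nuclease tethered by an antibody releases the DNA around marked nucleosomes. All mice were 4-week-old C57BL/6 males with both Phf2 alleles floxed: controls (Ctrl, Phf2 flox/flox;Acta1 Cre-) lacked Cre, and conditional knockouts (CKO, Phf2 flox/flox;Acta1 Cre+) carried Cre under the skeletal actin promoter Acta1. That Cre acts in muscle fibres, so the other cells of the muscle keep PHF2, a demethylase described for the repressive mark H3K9me2. There was 1 library each for H3K4me3 in Ctrl, H3K9me2 in Ctrl, H3K9me2 in CKO and input in CKO, and 2 for input in Ctrl. The title of the H3K4me3 library calls it wild type, while its genotype label is Ctrl. H3K4me3 in CKO was not analysed here, and no mark has a replicate, so nothing below is tested between genotypes.

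Glycolysis splits glucose to pyruvate in a chain of cytosolic enzymes and yields ATP fast enough for sprint-like contraction, and in muscle much of its fuel is glucose phosphate released from stored glycogen. Several of its steps are run in muscle by isoforms that other tissues use little: Pfkm (phosphofructokinase, the main control point), Pygm (glycogen phosphorylase), Eno3 (beta-enolase) and Pgam2 (phosphoglycerate mutase). Aldoa (aldolase A), Gapdh (glyceraldehyde-3-phosphate dehydrogenase), Pkm (pyruvate kinase), Ldha (lactate dehydrogenase A), Gys1 (glycogen synthase) and Tpi1 (triosephosphate isomerase) are used in muscle and in many other tissues. H3K4me3 marks nucleosomes around active transcription starts, most widely where the DNA is rich in CG dinucleotides. H3K9me2 is a mark of repressed chromatin that often lies in broad domains.

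Values are given as the authors' fold, which is the summit of a peak over its local background, so a high summit on a high background has a low fold. The number of fragments at the summit and the local background, in fragments per position, were read back from the fold and p-value of each peak, taking the fold as summit plus 1 over background plus 1 and the p-value as a Poisson tail. In the H3K4me3 list the median peak had a fold of 10.01 and 52 fragments, and the lowest background, that of the genome as a whole, was 0.482. The H3K9me2 and input lists rested on medians of 6 to 9 summit fragments, so a peak in them is a small count. Defining fibre genes were poorly marked: of 8 fibre markers, Tnni2 (fold 6.35), Tnnt3 (3.42) and Atp2a1 (3.30) had an H3K4me3 peak within 2 kb of a listed start or, for Tnni2 and Tnnt3, which have none listed, of either gene end, and Acta1, Ckm, Myh1, Myh4 and Mylpf had none. The myogenic regulators Myod1 (8.95) and Myog (7.91) and the satellite cell marker Pax7 (5.49) had such a peak, for Myod1 at a gene end since no start is listed. Of markers of other cells, Pecam1 and Cdh5 (endothelium), Pdgfra and Col1a1 (connective tissue), Ptprc and Cd68 (immune cells), Adipoq (fat) and Alb (liver) had none, with gene ends searched for Pecam1, Cdh5 and Col1a1. A missing peak was therefore not read as a silent gene, and peaks from whole muscle do not tell fibres from other cells.

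Sequences around the starts are shown first because the members differ most plainly in their CG content, and they are given for the genes at the extremes of H3K4me3 fold or with a start that no peak covers. Each line holds 250 bases before the start and 50 from the start on, 5′ to 3′ on the gene's strand, from RefSeq on GRCm38.p6, the assembly behind mm10. Capitals mark CG dinucleotides. The windows are chr15:98108306-98108605 (plus strand) for start 3 of the 4 listed for Pfkm, chr19:6384158-6384457 (plus) for Pygm and chr11:70656926-70657225 (plus) for Eno3. For Aldoa they are chr7:126800398-126800697 (minus) for the first and chr7:126799129-126799428 (minus) for the last of 3 starts. For Ldha and Tpi1 they are chr7:46845554-46845853 (plus, the first of 2 starts) and chr6:124814109-124814408 (minus).
Pfkm: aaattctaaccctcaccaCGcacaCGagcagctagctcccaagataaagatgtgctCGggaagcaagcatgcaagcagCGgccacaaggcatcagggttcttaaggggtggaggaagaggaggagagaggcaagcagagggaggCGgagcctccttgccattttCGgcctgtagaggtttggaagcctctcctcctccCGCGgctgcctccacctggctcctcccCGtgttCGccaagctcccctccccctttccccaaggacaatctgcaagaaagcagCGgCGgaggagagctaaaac
Pygm: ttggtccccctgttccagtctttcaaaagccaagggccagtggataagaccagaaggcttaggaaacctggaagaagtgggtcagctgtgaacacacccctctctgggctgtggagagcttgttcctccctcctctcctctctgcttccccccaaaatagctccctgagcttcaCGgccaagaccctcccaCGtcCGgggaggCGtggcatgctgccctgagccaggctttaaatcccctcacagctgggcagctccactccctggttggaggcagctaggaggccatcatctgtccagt
Eno3: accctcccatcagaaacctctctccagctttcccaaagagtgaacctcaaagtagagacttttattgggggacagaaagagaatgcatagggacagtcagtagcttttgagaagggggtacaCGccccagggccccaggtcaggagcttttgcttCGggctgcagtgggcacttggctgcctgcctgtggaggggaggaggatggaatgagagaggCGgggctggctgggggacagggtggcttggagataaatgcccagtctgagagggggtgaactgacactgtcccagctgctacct
Aldoa, first start: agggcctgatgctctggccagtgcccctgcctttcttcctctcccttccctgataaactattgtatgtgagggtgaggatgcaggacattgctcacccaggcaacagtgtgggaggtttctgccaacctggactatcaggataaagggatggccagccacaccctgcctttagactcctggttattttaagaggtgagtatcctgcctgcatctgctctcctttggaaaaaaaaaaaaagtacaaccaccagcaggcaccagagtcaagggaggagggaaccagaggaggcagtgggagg
Aldoa, last start: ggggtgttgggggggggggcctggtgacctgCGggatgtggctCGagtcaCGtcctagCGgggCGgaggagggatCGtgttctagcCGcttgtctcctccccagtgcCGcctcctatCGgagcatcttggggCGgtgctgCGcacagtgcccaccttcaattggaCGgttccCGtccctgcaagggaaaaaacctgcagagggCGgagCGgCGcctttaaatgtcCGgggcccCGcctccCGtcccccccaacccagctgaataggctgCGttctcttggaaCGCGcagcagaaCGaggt
Ldha: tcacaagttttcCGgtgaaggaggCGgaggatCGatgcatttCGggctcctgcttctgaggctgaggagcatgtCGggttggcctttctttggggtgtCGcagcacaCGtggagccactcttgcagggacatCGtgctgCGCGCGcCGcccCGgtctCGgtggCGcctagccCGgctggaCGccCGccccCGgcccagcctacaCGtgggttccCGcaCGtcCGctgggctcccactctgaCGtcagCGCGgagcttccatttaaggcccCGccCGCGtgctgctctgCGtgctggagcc
Tpi1: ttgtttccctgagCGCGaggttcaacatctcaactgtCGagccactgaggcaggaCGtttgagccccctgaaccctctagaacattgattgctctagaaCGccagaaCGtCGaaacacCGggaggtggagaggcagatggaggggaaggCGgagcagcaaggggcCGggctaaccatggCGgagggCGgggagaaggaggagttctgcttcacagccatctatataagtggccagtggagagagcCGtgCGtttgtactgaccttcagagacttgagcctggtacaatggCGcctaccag
The Pygm and Eno3 windows hold 4 and 3 CG, the first Aldoa window 0 and the last 23, and the Ldha window 30. Pfkm has 12 and Tpi1 15, near the median of 13 over 21263 listed starts of coding genes.

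By the richest listed start of each gene, the muscle isoforms had fewer CG: Pgam2 1, Eno3 3, Pygm 4 and Pfkm 12. Among the shared genes, Gapdh had 12, Gys1 14, Tpi1 15, Aldoa 24, Pkm 27 and Ldha 30. The 2 sets meet at 12 and do not otherwise overlap by this measure. Single starts do overlap: the first Aldoa start has 0 CG, below every muscle isoform start. Aldoa and Gys1 are also the forms of muscle, and counting them as muscle isoforms would make the richest starts overlap too. Over all coding genes the share of starts with an H3K4me3 peak over them was higher the more CG they held: 0.547% of 3841 starts with 0 to 2 CG, 3.36% with 3 to 5, 19.8% with 6 to 9, 55.1% with 10 to 14, 79.7% with 15 to 19, 92.1% with 20 to 29 and 95.3% with 30 or more. Pgam2 was among the 21 starts of the lowest class with a peak, and Pygm among the 102 of the next. Eno3, in the same class as Pygm, had no peak over its listed start. In all, 10 of the 17 listed starts of the 10 genes had a peak over them, where 50.5% of all listed coding starts did.

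**Figure D1:**
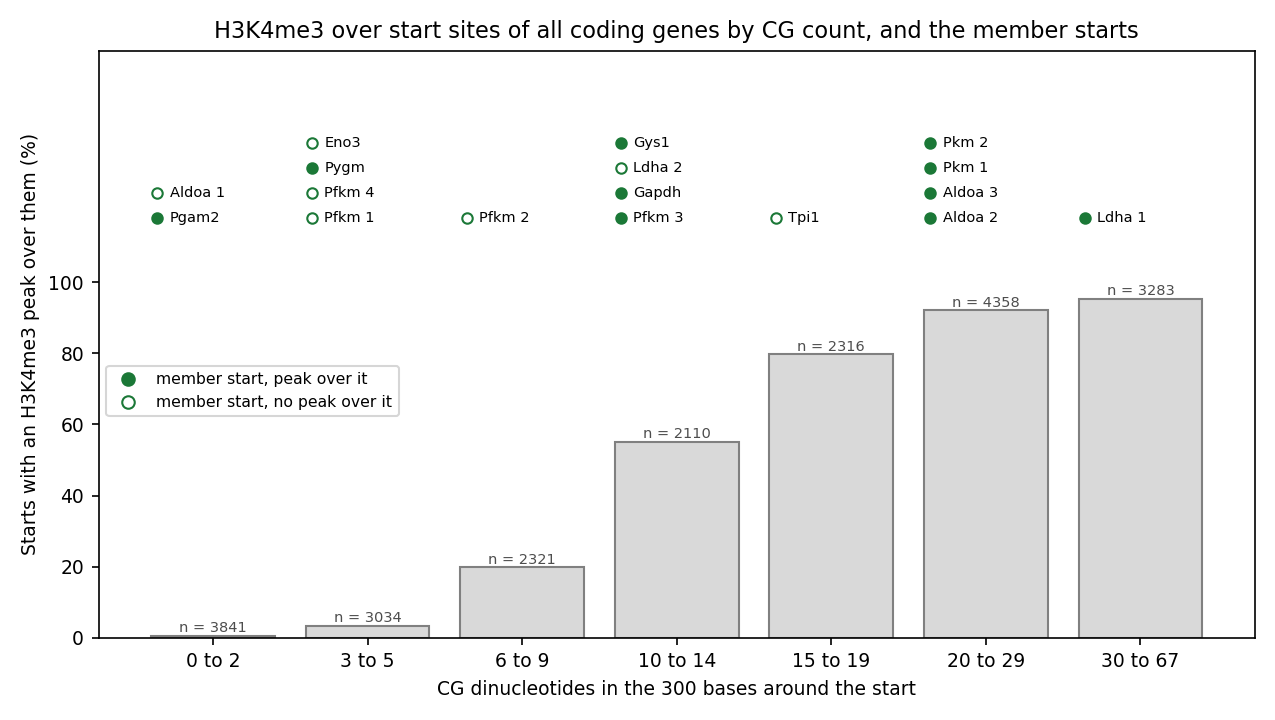
Bars give the share of listed coding start sites with an H3K4me3 peak over them (y axis, percent) by the number of CG dinucleotides in the 300 bases around the start (x axis), with the number of starts above each bar. Circles list the 17 member starts by class (numbers count starts along the gene; height carries no value), filled where a peak covers the start: the share climbs from 0.547% to 95.3%, and Pgam2 and Pygm are covered in the 2 poorest classes.

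Short motifs were searched on both strands of the same windows. The MEF2 motif, bound by a factor family of muscle and heart, was in 2.74% of the 21263 windows and in 1 of the 17 member windows: Pgam2 holds ctatttttaa, which begins 80 bases before its start. E-boxes (CANNTG), which myogenic factors can bind, were in 14 of 17 member windows and in 69% of all. The core of the hypoxia response element (ACGTG) was in 8 of 17 and in 20.9% of all, with 5 matches in the first Ldha window, some overlapping on opposite strands, and 3 in the first Pfkm window. GC boxes (GGGCGG) were in 6 of 17 and 46.2% of all, each of the 6 at a shared gene. TATAAA was in 0 of 17 and 12.6% of all. Windows of close starts overlap (Pfkm, Aldoa), and a match is a run of letters, not a bound site.

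H3K4me3 peaks lay at all 10 genes. The 10 windows held 24 peaks, with at least 1 in each, where 68.1% of coding genes had a peak in such a window and 70.7% of the 13179 genes in the members' length range of 2160 to 39859 bp. Each member had a peak within 2 kb of a listed start, against 60.2% of the 17492 coding genes with a listed start. A peak lay over a listed start in 8 of the 10, against 53.6%. The neighbourhoods are crowded: 12 of the 24 summits were nearest to a start of another coding gene, 11 of them within 1 kb of it. The highest peak within 2 kb of a listed start whose summit was nearer to a start of the member than to that of any other coding gene is called its own peak, a rule added after the values were seen.

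**Figure D2:**
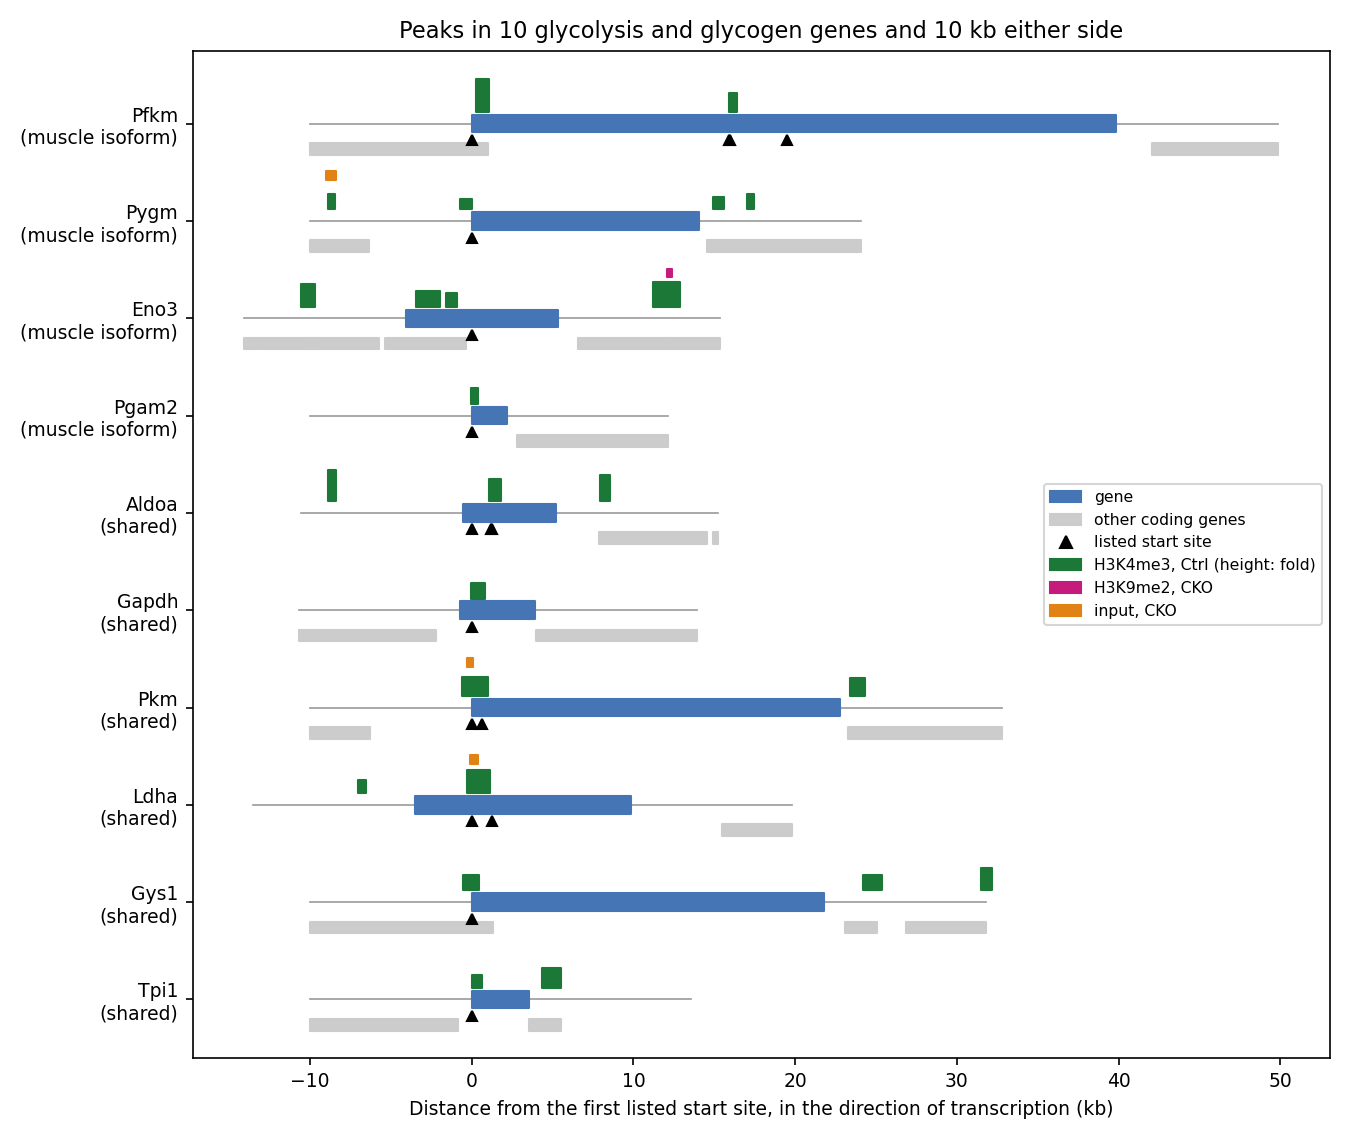
Map of each gene and 10 kb either side, with distance from the first listed start along transcription in kb (x axis) and genes in rows: blue bars are the members, grey bars other coding genes, triangles listed starts, green blocks H3K4me3 peaks (height is fold), pink the H3K9me2 peak of CKO and orange the input peaks of CKO. Each member has H3K4me3 near a start, and many of the tallest blocks stand over grey neighbours.

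Of the muscle isoforms, Pfkm (chr15:98092589-98132447, plus strand) shares its 5′ end with a neighbour. Its highest peak (chr15:98092883-98093690, fold 14.6, 115 fragments) began 294 bp after its first listed start. The summit was 159 bp from the start of Senp1, a SUMO protease gene that overlaps the 5′ end of Pfkm. The own peak of Pfkm (chr15:98108480-98108970, inside the gene) covered its listed start 3 and lay 9 bp from start 2, with a fold of 7.49 and 30 fragments over a background of 3.14. Starts 1 and 4 had no peak over them, and start 4 was 3090 bp from the nearest.

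Pygm (chr19:6384408-6398464, plus strand) releases glucose phosphate from glycogen. Its own peak (chr19:6383688-6384447) had a fold of 2.88 and 13 fragments over a background of 3.87. Only 2 of 10535 coding genes with a start peak had a lower fold. Its −log10 q was 1.93, and it was the 1 member start peak lost at q of 1e-05 or less. The peak reached 720 bp before the start and 39 bp past it. By comparison, the medians over 7375 coding genes with a single listed start and a peak over it were 282 bp before and 536 bp after. The other 3 peaks of the window lay in Sf1 (fold 5.35) and near the starts of Rasgrp2 (4.03 and 5.48).

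Eno3 (chr11:70653125-70662513, plus strand) had no peak over its listed start. The nearest (chr11:70655605-70656266, fold 4.53, 75 fragments) ended 910 bp before it, and a broader one upstream (chr11:70653712-70655219, fold 5.40, 88 fragments) had its summit 603 bp from the start of Pfn1, the profilin gene. Both summits lie where the Pfn1 gene and the annotated 5′ part of Eno3 overlap. The nearest peak counts as the own peak of Eno3 only because the rule uses listed starts. Its summit was 1151 bp from the Eno3 start and 774 bp from an annotated end of Pfn1, so it may belong to either gene. The 2 peaks stood close together. They stood on backgrounds of 15.8 and 15.5 fragments, 32.7 and 32.1 times the genome-wide level. The latter value is above that of 98.5% of coding genes with a start peak. The low folds at Eno3 go with a high background. The summits of 75 and 88 fragments were at percentiles 55.8 and 68.3 of coding genes with a start peak. The 2 other peaks of the window had their summits nearest to the starts of Slc25a11 (9.03) and Spag7 (10.1).

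Pgam2 (chr11:5801637-5803796, minus strand), the shortest member at 2160 bp, had a single peak in its window (chr11:5803393-5803807). The peak covered the start, with 11 bp before it and 403 bp after, a fold of 5.80 and 17 fragments over 2.10. At 415 bp its width was at percentile 3.49 of the start peaks of coding genes.

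Among the shared genes, Ldha (chr7:46842274-46855627, plus strand), which turns pyruvate to lactate, had the highest own peak (chr7:46845525-46846958, fold 9.52, 72 fragments, 1434 bp). It covered the first listed start and ended 124 bp short of the second. Aldoa (chr7:126795234-126800994, minus strand) followed with a fold of 8.91 and 52 fragments (chr7:126798656-126799372). This peak covered the 2 downstream starts, which have 24 and 23 CG. It ended 1075 bp short of the first listed start, which has 0 CG. A further peak with a fold of 13.8 lay outside coding genes, its near edge 8360 bp before the first Aldoa start, and another (10.8) had its summit 182 bp from the Ppp4c start. The other peak of the Ldha window (4.18, 9 fragments) lay 6666 bp before its first start, outside coding genes.

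Pkm (chr9:59656576-59679372, plus strand) had the widest start peak of the 10, 1589 bp over both listed starts (chr9:59655988-59657576, fold 7.37, 58 fragments over a background of 7.004). Gapdh (chr6:125161852-125166467, minus strand), often used as a reference gene, had a fold of 5.59 with 30 fragments (chr6:125164926-125165821). Its summit was 694 bp past the listed start and 1388 bp from the annotated gene end. Gapdh has processed copies elsewhere in the genome, and the sources used here do not say how reads matching several places were handled. Gys1 (chr7:45434839-45456617, plus strand), which builds glycogen, had 5.39 and 28 fragments (chr7:45434289-45435296) where it overlaps Ruvbl2. Tpi1 (chr6:124810586-124814158, minus strand) had the lowest fold of the shared genes, 4.30, with 34 fragments over a background of 7.14 (chr6:124813527-124814144). That peak ended 14 bp inside the gene from its start, so the start itself was not counted as covered. The other peaks of these windows had their summits nearest to starts of neighbours: Gramd2 (6.91) beside Pkm, Ftl1 (5.23) and Bax (9.28) beside Gys1, and Spsb2 (7.64) beside Tpi1.

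Side by side, the own-peak folds ran from 2.88 to 7.49 in the muscle isoforms (median 5.16, 4 genes) and from 4.30 to 9.52 in the shared genes (median 6.48, 6 genes). The ranges overlap, and genes are not replicates, so no test was made. Own-peak summit fragments had medians of 23.5 (13 to 75) and 43 (28 to 72). With the highest peak within 2 kb in place of the own peak, the muscle median was 5.60 for fold and 52.5 for fragments, because the Senp1 and Pfn1 peaks then stand for Pfkm and Eno3. The direction in fragments therefore rests on which peak is credited to those 2 genes. The medians of local background were 5.40 and 5.81 by the highest peak and 3.50 and 5.81 by the own peak.

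As a set, the 10 had low folds for genes with a start peak. None of the 10 own peaks reached the list median of 10.01, and by the highest peak within 2 kb only Pfkm did, through the Senp1 peak. Of all coding genes with a listed start 37.6% had a start peak at or above that median, and of those with a start peak 62.5%. The median of the highest start peak was 5.70 in the members and 11.2 over coding genes (quartiles 8.64 and 14.1). Fragments differed less by the highest start peak, with medians of 43 and 68, and the local background was 5.81 in the members against 4.55. By the own peak the members' medians were a fold of 5.70, 32 fragments and a background of 4.75. Fragments then differed no less than fold, so the smaller difference rests on the peaks credited to Pfkm and Eno3. By the highest start peak, 9 of 10 members lay below the coding-gene median of fold and 7 of 10 below that of fragments. Above that of background lay 7 of 10, with Gapdh level with it at 4.55. Pfkm was among the 7 by the Senp1 peak, and its own peak had a background of 3.14, below the median. The part of the local background in these folds was not tested. In 7 of 10 the own summit lay after the start, as in 75.2% of coding genes with a single covered start.

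**Figure D3:**
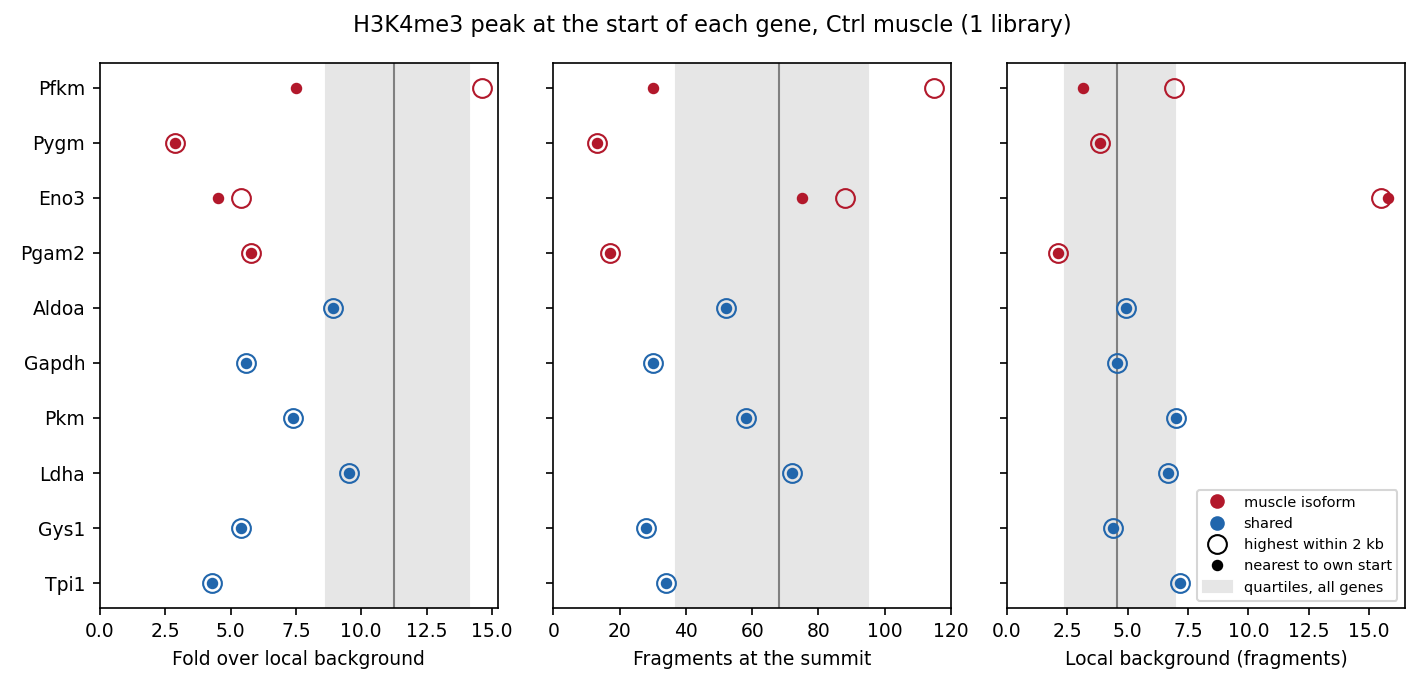
Fold, summit fragments and local background in fragments (x axes of the 3 panels) of the H3K4me3 start peak of each gene (rows); open circles are the highest peak within 2 kb of a start, dots the peak nearest to the gene's own start, red the muscle isoforms, blue the shared genes. Grey bands and lines are quartiles and medians over coding genes with a start peak. The dots of 8 of the 10 genes lie left of the grey band in fold, and Eno3 stands far right in background.

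The other isoforms of the same enzymes, which serve liver, brain, testis or many tissues, mostly had higher folds where they had a peak. A start peak was present at 8 of them, with folds of 9.39 (Pfkp) to 14.7 (Pfkl). The isoforms are given by their highest peak within 2 kb, since the own-peak rule was applied to the members alone. Each of the 8 was higher in fold than the own peak of its family's member. By the like measure, the highest start peak of both, 7 of 8 were higher, Pfkp being the exception. Pygl (12.8) and Pygb (14.7), the liver and brain phosphorylases, stood against 2.88 for Pygm. Eno1 (13.0) and Eno2 (13.6) stood against 4.53 for Eno3, Pgam1 (12.7) against 5.80 for Pgam2, and Ldhb (11.4) against 9.52 for Ldha. In summit fragments the order was mixed: Pygm had 13 against 34 and 61, and Pgam2 17 against 87. By contrast Eno3 had 75 against 134 for Eno1 and 38 for Eno2, and Ldha 72 against 32 for Ldhb. The 8 had 15 to 30 CG at their richest start.

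Aldoc, Gapdhs, Pklr, Ldhc and Gys2 had no start peak. The starts of the 4 of these that are listed had 4 to 9 CG. These are forms of liver, brain or testis, and each belongs to a family whose shared member was marked in muscle. No start is listed for Gys2, for which both gene ends were searched.

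**Figure D4:**
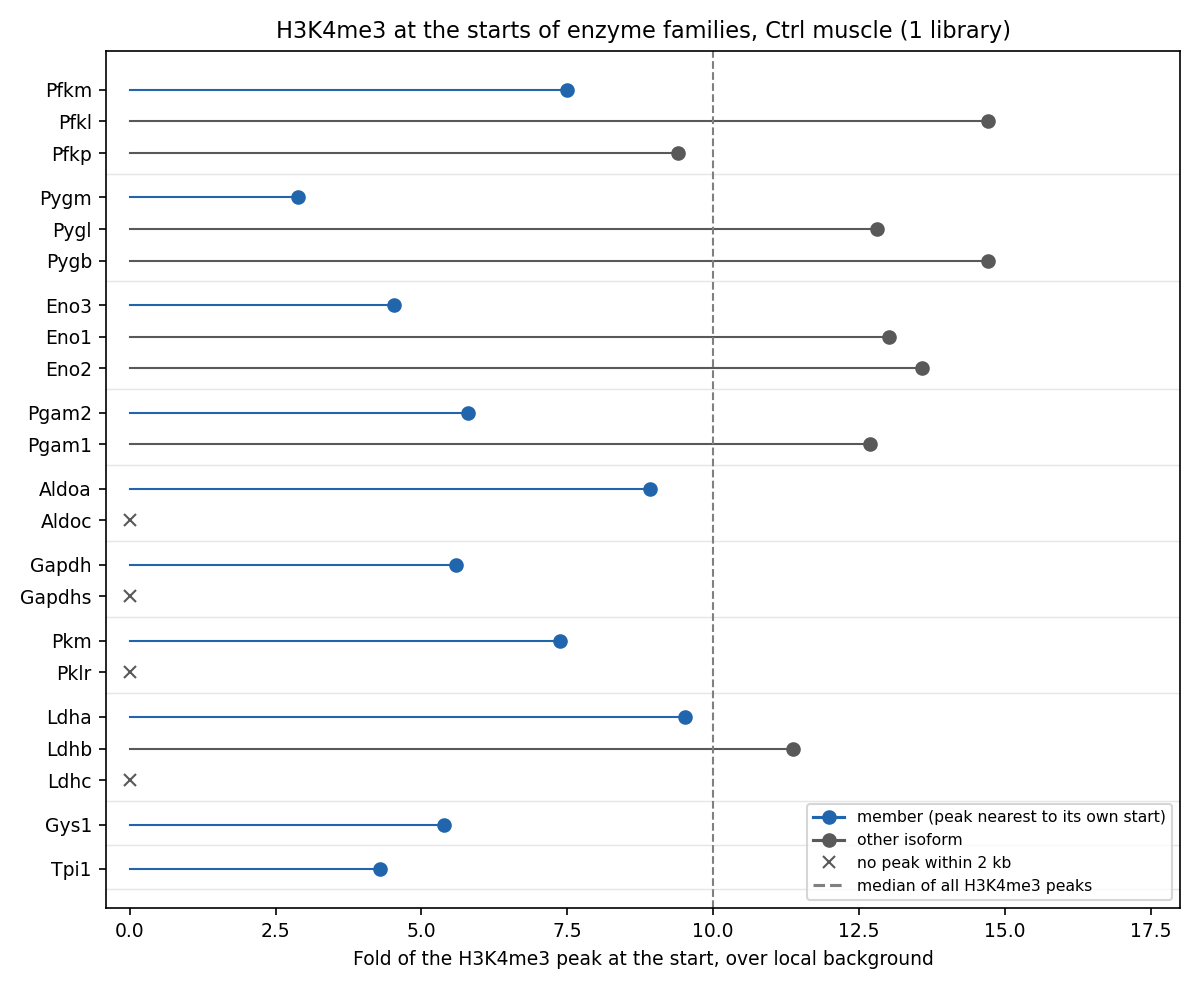
Fold of the H3K4me3 peak at the start (x axis) for genes with a listed start in 10 enzyme families (rows). Blue dots are the members by their own peak, and grey dots the other isoforms by their highest peak within 2 kb. Crosses are genes with no peak within 2 kb, and the dashed line is the median of all H3K4me3 peaks (10.01). The blue dots all lie left of the line, and 7 of the 8 grey dots lie right of it.

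Most of the wider pathway was marked at its starts. Of 40 further genes of glycolysis and glycogen metabolism, 33 had a start peak, where 60.2% of coding genes with a listed start had one. At or above the list median were 24, where 37.6% of coding genes were. Gene ends were used for the 3 of the 40 with no listed start. The pathway genes with a peak had a median fold of 12.2 and 73 fragments (11.2 and 68 over coding genes). Among the highest were Gyg, glycogenin, which primes glycogen (fold 16.6), and Epm2a, laforin, a glycogen phosphatase (16.3). The lowest were Pfkfb1 (5.83), Phkg1 (6.05), Pfkfb2 (7.58) and Ppp1r3c (7.99), with Pfkfb2 named after its value was seen. Pfkfb1 makes and breaks down fructose bisphosphate, and Phkg1 is the catalytic subunit of muscle phosphorylase kinase. Ppp1r3c is a glycogen-targeting subunit of protein phosphatase 1. Outside the enzyme families above, Ppp1r3a, the muscle glycogen-targeting subunit, was the 1 gene with no start peak.

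H3K9me2 peaks were few at the 10 genes in both genotypes, as they were over coding genes. In Ctrl 0 of 10 had a peak, where 6.34% of coding genes had one (3.89% in the members' length range) and 3.92% had one that no input peak overlapped, called input-free (2.15% in the range). In CKO 1 of 10 had a peak, which was input-free, where 19.4% had any (14.1% in the range) and 12.5% an input-free one (8.15% in the range), so the count is near the background in both. The single peak (chr11:70669256-70669590, fold 4.52, 7 fragments over 0.771) lay in the flank of Eno3, 91 bp from the start of Spag7 and inside the H3K4me3 peak shared by Spag7 and Camta2. It is not at Eno3 itself, and it was lost with a flank of 5 kb or less, at q of 1e-05 or less, and when the CKO list was shortened to the length of the Ctrl list. The Ctrl list had 3703 peaks and the CKO list 12832, with genome-wide backgrounds of 0.391 and 0.544 fragments. Since a peak is listed only past the authors' threshold, a missing peak does not show that the mark is absent.

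In the wider pathway, 2 of 40 genes had an input-free H3K9me2 peak in Ctrl and 5 of 40 in CKO, which is near the background of 3.92% and 12.5% over coding genes. In Ctrl they were Gbe1, the branching enzyme (fold 4.12, 5 fragments), and Phkb, a phosphorylase kinase subunit (5.03, 6 fragments), both inside the gene, with summits 244734 and 78897 bp from the start. In CKO they were Gys2, liver glycogen synthase (8.42, 12 fragments), Ppp1r3a (5.52, 8), Epm2a (5.14, 9), Phka2 (4.53, 6) and Pgm1, a phosphoglucomutase gene (4.52, 7). Gys2 and Ppp1r3a, which carry a peak inside the gene, are also without an H3K4me3 start peak. The Epm2a and Phka2 peaks lay in the flank past the gene. The Pgm1 peak lay over an H3K4me3 peak at its start. Of 19 H3K9me2 peaks at these genes, both genotypes together, 12 overlapped an input peak. Of all H3K9me2 peaks 26.8% did in Ctrl and 23.4% in CKO. Those shares include peaks far from genes, so they are not a like background for peaks in gene windows. An H3K4me3 peak was overlapped by 9 of the 12 with an input peak and by 1 of the 7 input-free ones. The like shares over all H3K9me2 peaks are not given here, so these counts are not read as a trait of the pathway genes.

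The libraries labelled input had peaks at 3 of the 10 genes in CKO, where 39.8% of coding genes had one (35.6% in the length range), and at 0 in either Ctrl input (11.8% and 5.37% of coding genes, 9.88% and 4.17% in the range). Those at Ldha (chr7:46845687-46846180, fold 6.01, 9 fragments) and Pkm (chr9:59656259-59656687, fold 3.80, 5 fragments) lay over the first start, inside the H3K4me3 peak. The one near Pygm (fold 5.09, 11 fragments) lay in Sf1, over the H3K4me3 peak there. The H3K4me3 peaks at the Ldha and Pkm starts and in Sf1 are the 3 of 24 that overlap an input peak, where 37.1% of all H3K4me3 peaks did.

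Of the 10 genes, 6 (Pfkm, Pgam2, Aldoa, Gapdh, Gys1 and Tpi1) had H3K4me3 and peaks in none of the other 5 lists, a pattern of 24.3% of coding genes and of 30.5% in the members' length range. In the wider pathway 10 of 40 shared it: Hk2, the muscle hexokinase, Pgk1, Ldhb, Pygb, Phkg1, Phkg2, Ppp1r3c, Stbd1, Pfkfb1 and Tigar.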

How the data were processed

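Peak lists of 6 CUT&RUN libraries were used, 1 per library, grouped by the titles and genotypes of the labels. The submitters' processing notes name Bowtie2, MACS2 and the build mm10. Versions, the control library, the threshold and whether libraries came from separate animals: not given in the sources used here. For each peak the authors deposited a fold (ratio of summit to local background), −log10 p and −log10 q values, a score (10 times −log10 q, rounded down) and the summit offset. The score was not used.

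Only peaks on the 19 autosomes, X and Y entered, 16573 for H3K4me3, 3703 and 12832 for H3K9me2 in Ctrl and CKO, 3071 and 1309 for the Ctrl inputs and 10931 for the CKO input. Whole summit fragments and the local background were solved from fold, with 1 added to both, and the Poisson p-value, within 0.1% of the listed −log10 p, for at least 99.0% of peaks in each list. On simulated peaks 5999 of 6000 were recovered. Overlap meant 1 bp or more.

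Genes and start sites came from RefSeq tables of GRCm38.p6, and starts are listed for 17492 of 21887 coding genes. A start peak lies within 2 kb of a listed start, and where several do the highest fold counts. Percentiles compare with the start peaks of coding genes. Backgrounds are the same counts over all coding genes.

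The members, the 40 pathway genes, the markers and the naming rule were chosen with earlier results of these data known. The rule named all members with each of their peaks, the neighbour nearest to a peak, the isoforms, the 3 highest pathway genes, those without a start peak or with input-free H3K9me2, those sharing the commonest pattern, and the sequences of up to 6 members at the extremes or with an uncovered start. Some genes that the lists and the rule hold are not reported here, though counts over a whole list include them. No test was made: each mark has 1 library per genotype. Figures were drawn with matplotlib 3.10.9; tables were made in Python 3.11.15 with pandas 2.3.3, scipy 1.17.1 and numpy 2.4.6. Alternatives varied the flank, the q and fold thresholds, the input removal and the choice of start peak.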

Additional observations from a re-analysis of the deposited data

How the results depend on the processing

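Of 65 recomputed values, 51 kept their direction and stayed within 1.5 times. Part of these could not have changed, so the count overstates stability. Examples are Ctrl counts of 0 under stricter settings, and the CKO H3K9me2 count when the input removal was varied. All 10 genes kept an H3K4me3 peak with flanks of 0 to 20 kb, at q of 1e-05 or less and by summit position. With peaks at or above the median fold the 24 peaks became 4, in the windows of 3 genes, and 0 of these was a member's own peak. The 24 peaks became 12 with no flank and 15 with 2 kb. The single CKO H3K9me2 count became 0 with no flank, with 2 or 5 kb, at q of 1e-05 or less and with the shortened CKO list, and stayed at 1 otherwise. With 20 kb either side, 1 gene had a peak in Ctrl input 2 and 6 in the CKO input, and at q of 1e-05 or less 0 did in the CKO input. The Ctrl input count was 0 with both inputs together, so leaving out either could not change it. The ratio of muscle isoform to shared medians was 0.864 for fold, 1.22 for summit fragments of the highest start peak and 0.547 for those of the own peak, a measure added after seeing the data. The cause was not tested beyond the change of peak at Pfkm and Eno3. No paired analysis was possible because the groups share fewer than 2 replicate numbers and no test was made. Total fragments per library are not in the lists, and H3K9me2 and input peaks rest on medians of 6 to 9 summit fragments.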
